A study of Homo sapiens with 26 samples.

Results

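The mRNA levels of 10 inflammatory signalling genes were examined in single cell-derived cell lines (SCDCLs) of pancreatic ductal adenocarcinoma. The genes were the chemokines CXCL1, CXCL2, CXCL3, CXCL5, CXCL8, CXCL16, CX3CL1 and CCL20 and the interleukin 1 genes IL1A and IL1B, which were taken by their Ensembl identifiers as 10 of the 41078 genes measured. An SCDCL is a culture grown from a single cell of a parental line by limiting dilution, so that each is 1 clone. There was 1 poly-A selected, strand-specific library for each of 26 SCDCLs, 12 labelled BxPC3 and 14 labelled Panc1 (Panc-1), both of them established pancreatic cancer lines. Every library carries gemcitabine as its treatment in the labels, but in the methods the drug appears in viability assays alone, and no untreated library could be set beside these. The labels do not give the response of each library to gemcitabine.

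Chemokines are small secreted proteins that bind receptors on leukocytes and direct their migration. CXCL1, CXCL2, CXCL3, CXCL5 and CXCL8 (interleukin 8) carry an ELR motif, bind CXCR2 and attract neutrophils, whereas CCL20 binds CCR6 on dendritic cells and lymphocytes. CXCL16 and CX3CL1 (fractalkine) are made as membrane proteins that the proteases ADAM10 and ADAM17 can shed, and they bind CXCR6 and CX3CR1. Interleukin 1 alpha and beta, the products of IL1A and IL1B, bind the receptor IL1R1 with its partner IL1RAP and activate NF-kB, a transcription factor that can induce many chemokine genes and the interleukin 1 genes themselves.

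The ELR+ chemokine genes lie in 1 group on chromosome 4, and the letters just before their starts are shown because these genes varied together between the libraries. The sequences come from RefSeq (GRCh38.p14), in which 8 of the 10 genes had an entry and CXCL16 and CX3CL1 had none. Each is the 150 bases that precede the start, read 5′ to 3′ on the strand of the gene, and the capitals mark the longest run of letters that all 5 windows share, GGAATTTCC, or the longer GGGAATTTCCC that the first 4 share. Runs of this kind are known as binding sequences of NF-kB.
CXCL1, chr4:73869243-73869392 (+ strand): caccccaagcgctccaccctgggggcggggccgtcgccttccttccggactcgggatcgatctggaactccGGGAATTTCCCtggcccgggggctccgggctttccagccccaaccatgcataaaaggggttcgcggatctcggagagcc
CXCL2, chr4:74099196-74099345 (- strand): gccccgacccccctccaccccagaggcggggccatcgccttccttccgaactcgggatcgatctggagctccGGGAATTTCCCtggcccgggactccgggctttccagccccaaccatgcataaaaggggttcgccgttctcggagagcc
CXCL3, chr4:74038690-74038839 (- strand): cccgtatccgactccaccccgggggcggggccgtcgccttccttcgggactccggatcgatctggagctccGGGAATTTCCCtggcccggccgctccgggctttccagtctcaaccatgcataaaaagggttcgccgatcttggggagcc
CXCL5, chr4:73998678-73998827 (- strand): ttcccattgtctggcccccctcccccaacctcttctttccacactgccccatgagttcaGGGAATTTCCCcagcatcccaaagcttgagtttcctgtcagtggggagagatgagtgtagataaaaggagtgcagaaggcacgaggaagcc
CXCL8, chr4:73740419-73740568 (+ strand): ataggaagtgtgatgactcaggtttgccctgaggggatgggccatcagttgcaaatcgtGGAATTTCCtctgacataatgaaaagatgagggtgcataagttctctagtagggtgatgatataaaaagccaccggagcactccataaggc
The 11 letters GGGAATTTCCC stood 79 bases before the start in CXCL1 and CXCL3, 78 bases before it in CXCL2 and 91 bases before it in CXCL5. CXCL8 held only the 9 letters GGAATTTCC, 91 bases before the start. Searched on both strands in windows from 250 bases before to 50 bases after the start, the 11 letters were present in 26 of 27305 genes (0.0952%) and the 9 letters, which the 11 contain, in 153 (0.56%). Both runs were picked because these genes share them, so their presence here is no finding. Neither run was found in the windows of CCL20, IL1A or IL1B. Only these exact letters were searched, so other forms of an NF-kB sequence could be present there. Over 60 bases around this site, set side by side without gaps, CXCL1 and CXCL3 were identical at 56 positions (93.3%) and CXCL1 and CXCL2 at 48 (80.0%), whereas CXCL5 and CXCL8 shared 18 (30.0%). TGANTCA, a sequence bound by AP-1, was found in the windows of CXCL8 and IL1A, and in 9.37% of all genes. A match describes the letters and says nothing of binding in these cells.

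The libraries were divided by SMAD4, the signal transducer that BxPC3 is known to lack. SMAD4 was at most 0.0440 TPM (a transcript level scaled for transcript length and library size) in 12 libraries, called SMAD4-low here, and 28.1 to 52.2 TPM in the 14 others, called SMAD4-expressing. SMAD4 went against the label in 14 libraries, 7 with each label: the SMAD4-low set held B1 to B7, labelled Panc1, and B16, B21, B24, B25 and B26, labelled BxPC3. VIM, a mesenchymal filament, was at 1.42 to 73.2 TPM in the SMAD4-low and 3047 to 4526 TPM in the SMAD4-expressing libraries, and CDH1, an epithelial adhesion protein, at 90.8 to 198 against 0.338 to 7.74 TPM. Library totals were 27035724 to 34945608 estimated counts. Mitochondrial genes took 3.82 to 11.9% of TPM in the SMAD4-low and 1.37 to 6.24% in the SMAD4-expressing libraries. Because the sets came from a measured value, members are described between them without a test.

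Most of the inflammatory genes were higher in the SMAD4-low libraries. CXCL2, CXCL3, CXCL5, CXCL16, CCL20, IL1A and IL1B, 7 of the 10 members, were higher in every SMAD4-low library than in every SMAD4-expressing library. CX3CL1 alone of the members was higher in every SMAD4-expressing library, and CXCL1 and CXCL8 overlapped between the sets. Of 15246 genes with a median of at least 1 TPM in either set, 15.2% were higher in every SMAD4-low library and 15.8% in every SMAD4-expressing library, or 31% in either direction beside 8 of the 10 members, so that gaps of this kind were common in these libraries. VIM and CDH1 were divided in the same way, and the part that cell state or parental line had in the levels of the members was not tested. In libraries of whole cultures, more transcripts in each cell and more cells with transcripts cannot be told apart.

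**Figure D1:**
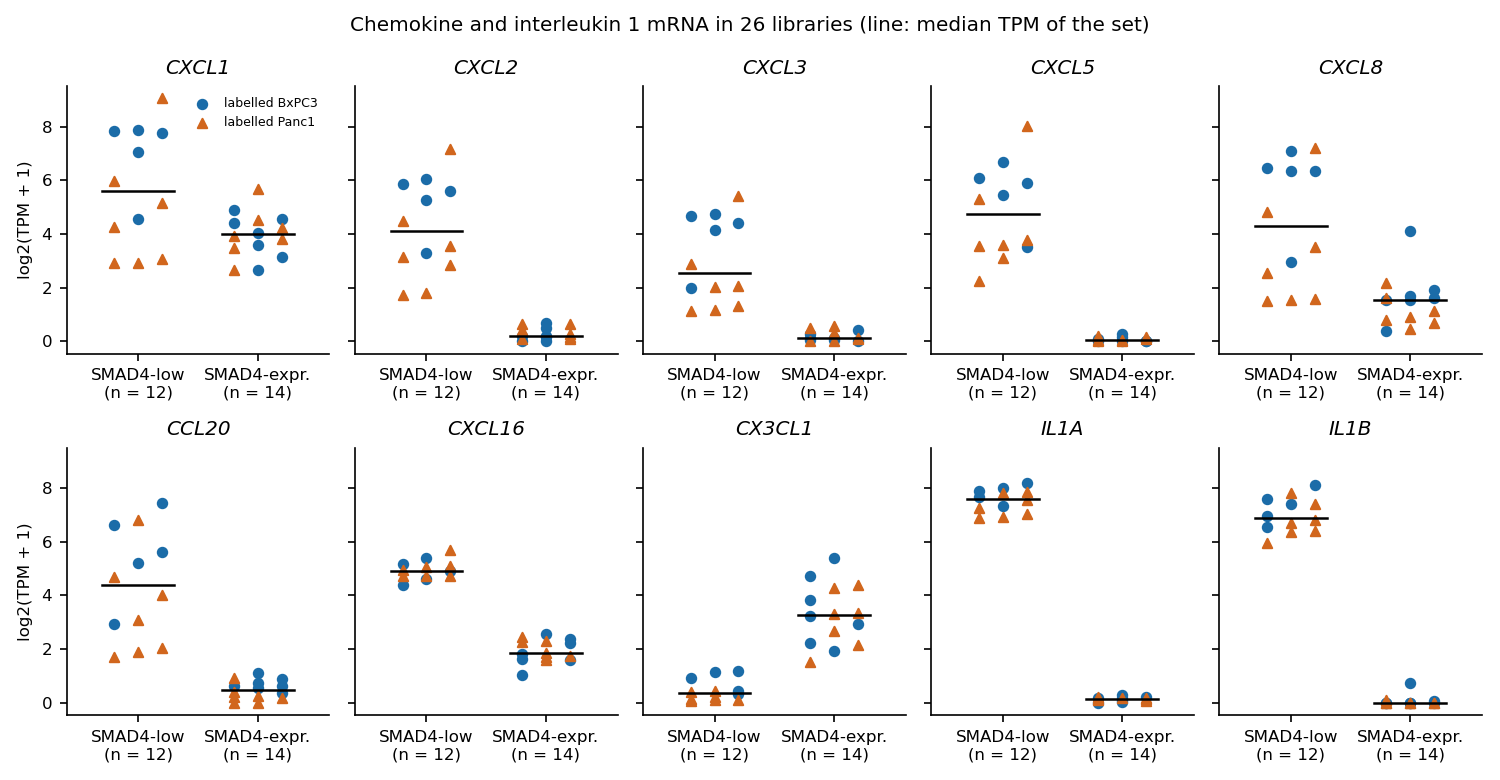
Level of each member, as log2(TPM + 1), in the 12 SMAD4-low and 14 SMAD4-expressing libraries; each point is 1 library, its shape and colour give the label, and the line is the median. IL1A and IL1B lie far apart between the sets, the ELR+ chemokines and CCL20 spread widely among the SMAD4-low libraries, and CX3CL1 is the member that is higher in the SMAD4-expressing libraries.

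The interleukin 1 genes showed the highest median levels of the members in the SMAD4-low libraries and were almost absent from the others. IL1A ranged from 119 TPM in B5 to 288 TPM in B16, with a median of 195 TPM, in the SMAD4-low libraries, and from 0 to 0.223 TPM in the SMAD4-expressing libraries, where the highest value came from 7.08 estimated counts. IL1B ranged from 61.0 TPM in B3 to 276 TPM in B26, with a median of 118 TPM, in the SMAD4-low libraries. Among the SMAD4-expressing libraries IL1B was at 0 in all but 3. Its highest value there was 0.680 TPM in B23, from 18.8 estimated counts, and the next was 0.0736 TPM in B14, from 1.86 counts. IL1A in B23 was 0.223 TPM, also the highest of that set, against 0.173 TPM in B8. The low counts do not allow a ratio between the sets for IL1B, and none is given for IL1A.

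The neutrophil-attracting chemokines differed in how they separated the sets. CXCL1 was expressed in every library, from 6.51 to 533 TPM (median 48.2) in the SMAD4-low and from 5.26 to 49.6 TPM (median 14.8) in the SMAD4-expressing libraries. The ranges overlapped, and the ratio of the medians was 3.25. CXCL8 was at 1.86 to 145 TPM (median 18.6) against 0.323 to 16.3 TPM (median 1.90), a ratio of 9.78 that became 5.41 without any 1 of B1, B4, B16, B21, B24 or B26 and 14.2 without any 1 of the other SMAD4-low libraries.

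The remaining ELR+ chemokines were nearly confined to the SMAD4-low libraries. CXCL5 ranged from 3.79 to 260 TPM (median 25.6) in the SMAD4-low libraries and did not exceed 0.221 TPM in the SMAD4-expressing libraries. CXCL2 was at 2.33 to 143 TPM (median 16.142) against at most 0.602 TPM. CXCL3 was the lowest of this group, at 1.19 to 41.3 TPM (median 4.78) against at most 0.491 TPM. CXCL1, CXCL2 and CXCL3 have similar coding sequences, and reads could be shared among them. CXCL1 reached 49.6 TPM in B13 where CXCL2 and CXCL3 were at 0.569 and 0.491 TPM, so that most reads were assigned to 1 of the 3 genes there.

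The other chemokines behaved differently from each other. CCL20 ranged from 2.27 TPM in B3 to 172 TPM in B26 (median 20.02) in the SMAD4-low libraries and from 0 to 1.17 TPM in the SMAD4-expressing libraries, in 7 of which it exceeded 3 estimated counts. CXCL16 was the most even, at 19.96 to 50.5 TPM (median 29.4) against 1.04 to 4.98 TPM (median 2.58), a ratio of 11.4. CX3CL1 ranged from 0.0381 TPM in B6 to 1.28 TPM in B21 (median 0.296) in the SMAD4-low libraries and from 1.86 TPM in B10 to 40.8 TPM in B19 (median 8.59) in the SMAD4-expressing libraries, whose median was 29.1 times higher. The sets did not overlap.

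The order of the median levels differed between the sets. In the SMAD4-low libraries it ran from IL1A over IL1B, CXCL1, CXCL16, CXCL5, CCL20, CXCL8, CXCL2 and CXCL3 to CX3CL1. CXCL2 was above CXCL3, and CXCL3 above CX3CL1, in all 12 libraries. IL1A was above IL1B in 10 libraries, whereas CXCL16 was above CXCL5 in only 6, CCL20 above CXCL8 in 7 and CXCL8 above CXCL2 in 7, so that these neighbours were not separated beyond their spread. In the SMAD4-expressing libraries CXCL1 led, followed by CX3CL1, CXCL16 and CXCL8. CXCL1 was above CX3CL1 in 10 of 14 libraries, and CXCL8 was above CCL20 in all 14.

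The ELR+ chemokines and CCL20 varied more between SMAD4-low libraries than nearly all other genes. The highest library exceeded the lowest 81.9-fold for CXCL1, 78.3-fold for CXCL8, 76.0-fold for CCL20, 68.6-fold for CXCL5, 61.3-fold for CXCL2 and 34.7-fold for CXCL3. In this set 14095 genes had a median of at least 1 TPM. Over those that also exceeded 3 estimated counts in every library of the set, the median of this ratio was 2.09. By the SD of log2(TPM + 1), CXCL8 ranked 6, CXCL1 ranked 9 and CCL20 ranked 14 among all 14095 genes. IL1B spread 4.52-fold, CXCL16 2.53-fold and IL1A 2.43-fold, much nearer to the median gene. The error of the quantification was far smaller than this spread. On the scale of log2(CPM + 1) of the estimated counts, scaled to the library total, the SD between libraries was 2.19 for CXCL8 and 1.43 for CXCL3. Over kallisto's repeated estimates from redrawn reads of the same library it was 0.0828 and 0.121, as a root mean square over the libraries.

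**Figure D2:**
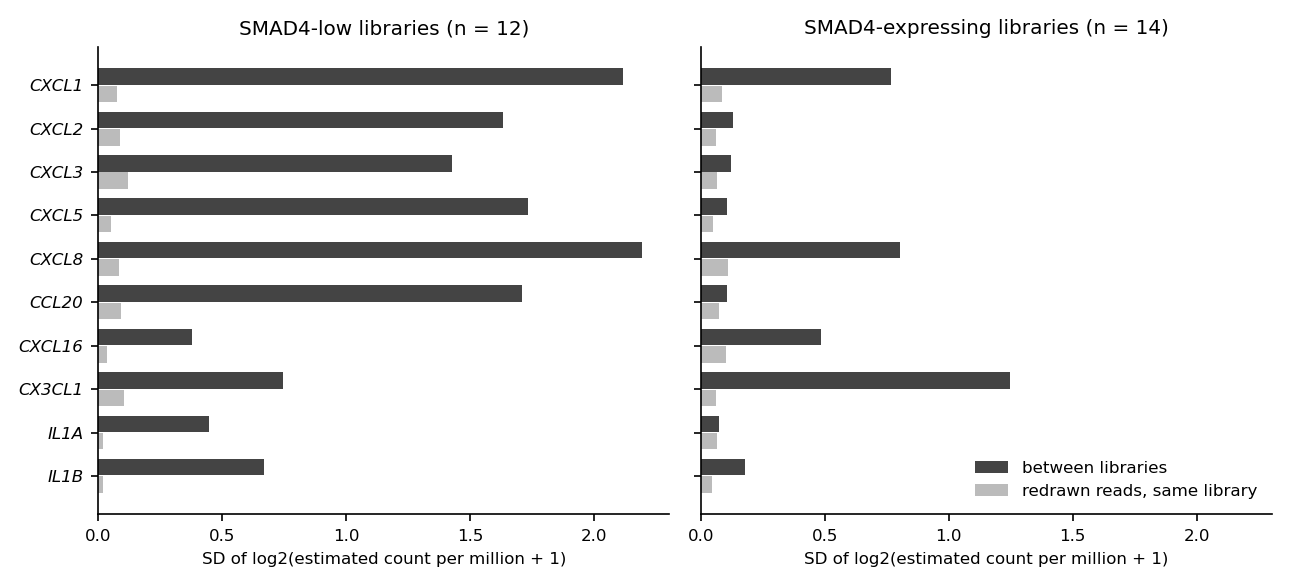
SD of log2(CPM + 1) of the estimated counts between libraries (dark bars) and over repeated estimates from redrawn reads of the same library (light bars) for each member in the SMAD4-low and SMAD4-expressing libraries. Each light bar is the root mean square over the libraries of the set. Between-library SDs reach 2.19 in the SMAD4-low set, where no light bar exceeds 0.121. In the SMAD4-expressing set IL1A shows 0.0759 against 0.0659.

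The same libraries were high for nearly all members. CXCL8 was at 1.86, 1.92 and 2.02 TPM in B5, B6 and B3, and at 4.91, 6.84 and 10.3 TPM in B7, B25 and B2. It was at 26.9 TPM in B1, at 80.1, 80.6 and 86.2 TPM in B24, B21 and B16, and at 136 and 145 TPM in B26 and B4. B1, B4, B16, B21, B24 and B26 thus took ranks 1 to 6 for CXCL8, 4 of them labelled BxPC3 and 2 labelled Panc1. These 6 libraries also took ranks 1 to 6 for CXCL1, CXCL2, CXCL3, CXCL5, CCL20, IL1A, IL1B and CX3CL1, although CX3CL1 exceeded 1 TPM only in B21 and B26. The exception among the members was CXCL16, for which B21 ranked 11 and B24 ranked 7. Of the 14095 genes, 209 placed the same 6 libraries above the 6 others and 148 placed them below, 2.53% in either direction. The 6 libraries were picked by CXCL8, so this is a description of its companions and no test was made.

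Library B4 held the highest level of every ELR+ chemokine and of CXCL16. CXCL1 was at 533 TPM in B4 and at 235 TPM in B26, the next library. CXCL5 was at 260 TPM in B4 and 102.997 TPM in B16, and CXCL2 at 143 TPM in B4 and 64.8 TPM in B21. B26 led for CCL20 and IL1B, and B16 for IL1A. At the other end, B3, B5 and B6 took the lowest ranks for CXCL1, CXCL2, CXCL3, CXCL8 and CCL20, with CXCL1 between 6.51 and 7.44 TPM, a range that lies within the SMAD4-expressing values.

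**Figure D3:**
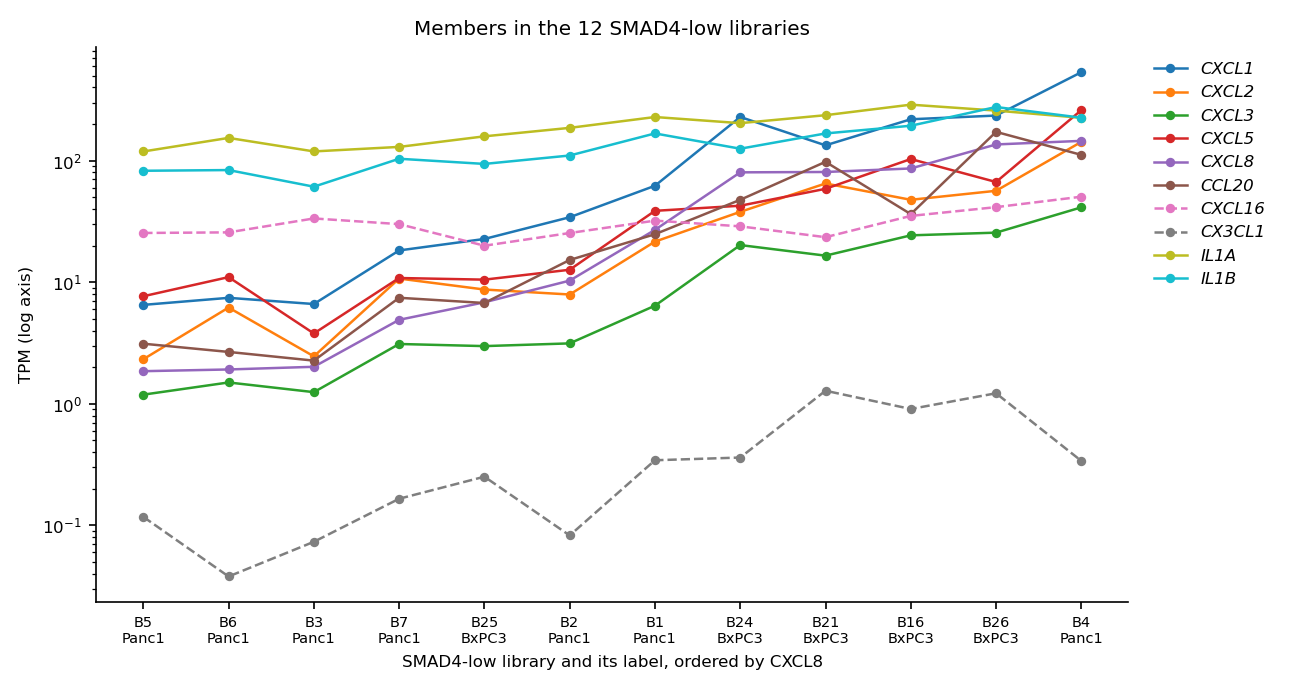
TPM (log axis) of the members in the 12 SMAD4-low libraries, ordered from left to right by CXCL8, with the label of each library under its name. The ELR+ chemokines and CCL20 follow CXCL8 over 34.7-fold to 81.9-fold ranges, IL1A and IL1B follow it over 2.43-fold and 4.52-fold ranges, and CXCL16 stays between 19.96 and 50.5 TPM.

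Pairs of members were correlated within each set, because pooling sets that lie apart would give a correlation without meaning. There were 42 pairs, of members with a median of at least 1 TPM in the set, and p-values came from a two-sided permutation test with 100000 resamples and were adjusted over all pairs. In the SMAD4-low libraries (n = 12), 29 of 36 pairs passed an adjusted p of 0.05 by Pearson's r, all positive, and 28 of these also by Spearman's rho. The share of all gene pairs that would pass in these libraries was not computed, so the count cannot be called particular to the members. CXCL1 and CXCL8 had r = 0.99 and rho = 0.97 (adjusted permutation p = 3.82e-05 and 7.00e-05), and r = 0.99 without the 2 libraries farthest from the median of CXCL1. IL1A and IL1B had r = 0.90 and rho = 0.91 (adjusted permutation p = 0.000177 and 0.000300), and r = 0.85 without 2 libraries. CXCL8 and IL1B had r = 0.92 and rho = 0.94 (adjusted permutation p = 0.000177 and 0.000120), with r = 0.89 without 2 libraries.

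CXCL16 accounted for the pairs that did not pass. Its r with the others ran from 0.40 with IL1A to 0.62 with CXCL5, and only the latter passed by r (adjusted permutation p = 0.0438) but not by rho (0.49, adjusted permutation p = 0.139). In the SMAD4-expressing libraries (n = 14), 0 of 6 pairs passed by r, with 0 also below an unadjusted permutation p of 0.05, and 1 by rho. That pair was CXCL1 and CXCL8, with rho = 0.74 (adjusted permutation p = 0.00508) and r = 0.49 (adjusted permutation p = 0.0925). The correlations of the 2 sets were not tested against each other.

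**Figure D4:**
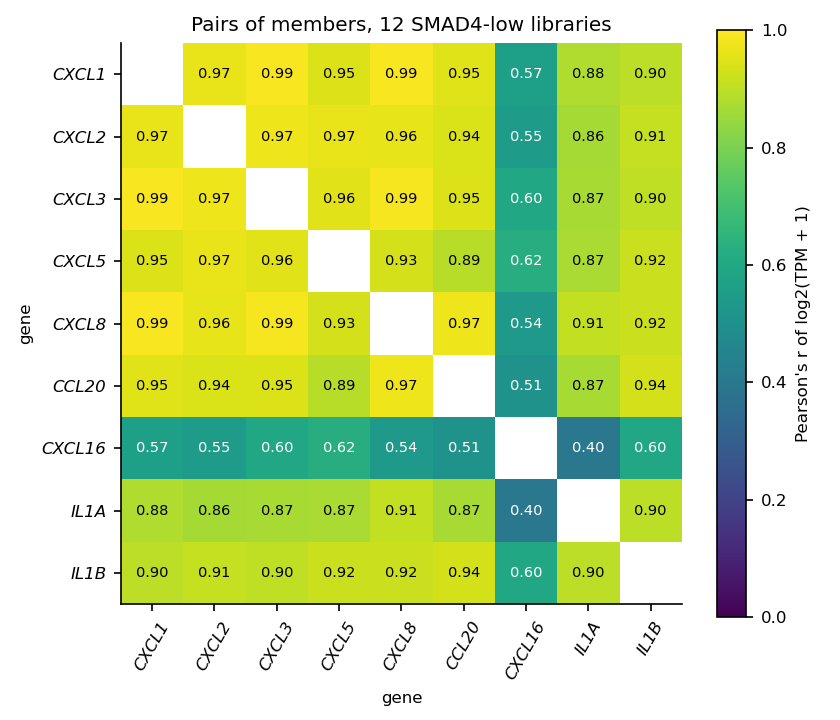
Pearson's r of log2(TPM + 1) for the 36 pairs of members with a median of at least 1 TPM in the 12 SMAD4-low libraries; both axes list the genes and the colour runs from 0 to 1. All pairs without CXCL16 lie at 0.86 or above, and pairs with CXCL16 lie between 0.40 and 0.62.

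Among the SMAD4-expressing libraries, CXCL8, CX3CL1 and CXCL1 also varied. CXCL8 spread 50.4-fold, from 0.323 TPM in B17 to 16.3 TPM in B23, with the next library, B10, at 3.49 TPM. B23 also held the highest IL1B (0.680 TPM) and IL1A (0.223 TPM) of this set, and a relation to CXCL8 was not tested. CX3CL1 spread 21.9-fold and CXCL1 9.43-fold, with B13 the highest for CXCL1 at 49.6 TPM and B15 next at 28.9 TPM. In this set 13532 genes had a median of at least 1 TPM. The ratios of CXCL8, CX3CL1 and CXCL1 exceeded those of 99.1%, 97.9% and 94.2% of the ones with more than 3 estimated counts in every library. Genes with a library at or below that count were left out of these shares. CXCL16 spread 4.77-fold.

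No library stood apart from its set for any member by a fixed rule, a distance over 3.5 scaled median absolute deviations and over 1 log2 unit from the median of the set. Under this rule 9.29% of 16980 genes had such a library among the SMAD4-low and 11.3% of 16397 genes among the SMAD4-expressing libraries. The members with the widest ranges could hardly meet it in the SMAD4-low set, since the deviation itself was large: B4 lay 3.502 log2 units above the median for CXCL1 but only 1.05 deviations. CXCL8 in B23 came nearest, 2.58 log2 units and 3.42 deviations above the median of the SMAD4-expressing libraries.

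The labelled lines were compared by edgeR's quasi-likelihood test across all genes, which is the comparison the labels give. No gene of 16008 passed an adjusted p of 0.05 with a log2 fold change over 1 (0%), and 367 had an unadjusted p under 0.05. DESeq2 called 1 gene and limma called 0. For the members the log2 difference, Panc1 minus BxPC3, ran from -1.42 (SE 1.19) for CCL20 and -1.29 (SE 1.00) for CXCL8 to 0.31 (SE 0.65) for CXCL16, and every adjusted p was 0.999982. With SMAD4 against the label in 14 libraries, this test compares labels and not lines.

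The labels were also compared within the SMAD4-low set, where the DESeq2 fits were added after the data were seen. CX3CL1 was at 0.252 to 1.28 TPM in the 5 libraries labelled BxPC3 and 0.0381 to 0.344 TPM in the 7 labelled Panc1. Its log2 difference was -2.32 (DESeq2 adjusted p = 0.0424), among 11 of 16124 genes called (0.0682%), whereas in edgeR 0 of these genes passed (0%), CX3CL1 had an adjusted p of 0.404, and 1840 genes were under an unadjusted p of 0.05. Left out in turn, 8 of the 12 libraries raised the DESeq2 adjusted p of CX3CL1 above 0.05, to at most 0.263 without B21, and it passed without B1, B4, B24 or B25. CXCL8 was at 80.1 to 136 TPM in 4 libraries labelled BxPC3 and at 6.84 TPM in B25, and at 1.86 to 26.9 TPM in 6 labelled Panc1 and at 145 TPM in B4, so that the labels overlapped through B25 and B4. Without B4 the DESeq2 log2 difference of CXCL8 moved from -1.55 to -3.30 (adjusted p = 0.0186). CXCL1 (-2.88, adjusted p = 0.0141), CXCL2 (-2.35, adjusted p = 0.0345), CXCL3 (-2.70, adjusted p = 0.000527) and CCL20 (-3.03, adjusted p = 0.0348) also passed in DESeq2 without B4, each lower in the libraries labelled Panc1, among 100 of 15988 genes called. CXCL3 passed without B25 as well (-2.50, DESeq2 adjusted p = 0.00325). With all 12 libraries, 0 of these 5 chemokines passed in DESeq2 (adjusted p of 0.499 or more). For all 5, B4 was the highest library labelled Panc1 and B25 the lowest labelled BxPC3 in this set. Leaving either out was therefore bound to make the difference larger, and these p-values are no evidence of a difference between the labels.

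The chemokine and interleukin 1 receptor genes that were examined were mostly below 1 TPM. Of 10 receptor genes, 6 had a median below 1 TPM in both sets: CXCR1, CXCR2, CXCR6, CX3CR1, CCR6 and the decoy receptor ACKR1. CXCR2, the main receptor of the ELR+ chemokines, was at 0 to 0.383 TPM in 11 SMAD4-low libraries and at 3.45 TPM in B4, 9.54 deviations above the median, and did not exceed 0.0897 TPM in the others. ACKR3, IL1R2 and IL1RAP, 3 of the 4 remaining genes, were higher in every SMAD4-low library, as were 15.2% of all genes. For ACKR3 and IL1R2 the gap was near the floor. The lowest SMAD4-low values were 0.365 and 0.313 TPM, against at most 0.0787 and 0.208 TPM in the SMAD4-expressing libraries. IL1RAP, the signalling partner of IL1R1, was at 30.4 to 70.1 TPM against 2.102 to 8.06 TPM. IL1R1 itself overlapped, with medians of 0.649 and 2.42 TPM, the higher in the SMAD4-expressing libraries.

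Genes that process or limit interleukin 1 or transmit its signal were described as a list. Of the 11 genes, 5 (IL1RN, CASP1, GSDMD, CAPN1 and TRAF6) were higher in every SMAD4-low library, IRAK1 was higher in every SMAD4-expressing library, 4 overlapped and NLRP3 was below 1 TPM in both medians, beside 15.2% and 15.8% of all genes in these directions. TRAF6 and IRAK1 act in the signal below the receptor. None of the 10 genes of the list that reached a median of 1 TPM placed B1, B4, B16, B21, B24 and B26 above the other SMAD4-low libraries. CASP1, the protease that cleaves the precursor of interleukin 1 beta, was at 15.9 to 41.7 TPM against 0.201 to 1.503 TPM. GSDMD, which forms the pore through which mature interleukin 1 beta can leave the cell, had medians of 51.1 and 11.5 TPM. IL1RN, which encodes the receptor antagonist, was at 0.890 to 8.52 TPM in the SMAD4-low libraries and at 0 in 13 of the 14 others. Of the sheddases, ADAM10 was higher in every SMAD4-low library (medians 403 and 153 TPM), and ADAM17 overlapped (17.06 and 37.4 TPM).

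The NF-kB list held 11 targets, subunits and feedback genes. NFKBIZ and NFKB1 were higher in every SMAD4-low library and 9 overlapped, where 31% of all genes did not overlap in either direction. ICAM1, a leukocyte adhesion molecule, had nearly equal medians of 77.6 and 76.5 TPM, and BIRC3, an inhibitor of apoptosis, had a lower median in the SMAD4-low libraries (7.96 against 45.1 TPM). NFKBIA, TNFAIP3, TNIP1, BIRC3 and ICAM1, 5 of the 11, were higher in B1, B4, B16, B21, B24 and B26 than in the other SMAD4-low libraries, which 209 of 14095 genes were. Across the 12 libraries rho with CXCL8 was 0.92 for TNIP1, 0.90 for ICAM1 and 0.83 for NFKBIA, the inhibitor that NF-kB induces as feedback. The NF-kB subunits RELA and NFKB1 had rho of -0.43 and -0.29. These rho values are descriptions, read beside a rho of -0.43 between CXCL8 and the library total and 0.41 with the mitochondrial share, and the part of either in the result was not tested.

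Leukocyte transcripts were low. Of 6 markers, only CD14 had a median of 1 TPM or more in the SMAD4-low libraries and only ITGAM in the others, and the summed level of the list was 0.137 to 30.1 TPM in the SMAD4-low and 0.655 to 5.70 TPM in the SMAD4-expressing libraries. PTPRC, the common leukocyte antigen CD45, was at most 0.535 TPM in any library. CD14 had a rho of 0.34 with CXCL8 in the SMAD4-low libraries. Of 5 fibroblast markers, COL1A1 was the main contributor, and the summed level was 9.72 to 28.6 TPM and 2.68 to 39.4 TPM in the sets, without separation.

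The genes whose levels over the libraries were most like those of the members included other members and other secreted proteins. For each member the 3 genes with the highest rho were taken, among 13242 genes in the SMAD4-low and 12627 in the SMAD4-expressing libraries. Over 12 SMAD4-low libraries, SAA1, which encodes the acute-phase protein serum amyloid A, followed CCL20 with rho = 1.00, at 0.527 to 244 TPM. CXCL3 and CXCL1 were each the other's nearest gene (rho = 0.99), and CXCL3 was also among the nearest to CXCL8 and CXCL5. IL6 was nearest to CXCL5 (rho = 0.97) and was also near IL1B (rho = 0.97). PI3, which encodes the elastase inhibitor elafin, was among the 3 nearest to CXCL2 (rho = 0.97), at 11.3 to 927 TPM. IL1A had TAP2, EPSTI1 and TAP1 as its nearest genes (rho = 0.92 each), and TAP1 and TAP2 together form the peptide transporter of antigen presentation. Over the 14 SMAD4-expressing libraries the nearest genes were others, such as FAM114A1 and HES1 for CX3CL1 (rho = 0.91 and 0.89) and ATP2A1 for CXCL8 (rho = 0.93). Each such list holds the highest values of a whole table and describes these libraries only.

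Neighbouring genes did not all share the expression of the members. On chromosome 4 of GRCh38, 9 protein-coding CXC chemokine genes lie within 359 kb (chr4:73740519-74099196, GENCODE 44), in the order CXCL8, CXCL6, PF4V1, CXCL1, PF4, PPBP, CXCL5, CXCL3 and CXCL2. The 5 members had medians of at least 1 TPM in the SMAD4-low libraries and CXCL1 and CXCL8 in the SMAD4-expressing libraries, whereas PF4 was at 0 in all 26 libraries, PPBP reached 0.390 TPM and PF4V1 was at 0 in every SMAD4-low library. CXCL6, between CXCL8 and CXCL1, was at 0.0419 to 7.90 TPM in the SMAD4-low libraries, with the highest value again in B4. On chromosome 2, 9 genes of the interleukin 1 family lie within 360 kb from IL1A to IL1RN (chr2:112773925-113134016). Of these, IL1A, IL1B, IL37 and IL1RN had medians of at least 1 TPM in the SMAD4-low libraries and 0 genes had one in the SMAD4-expressing libraries.

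**Figure D5:**
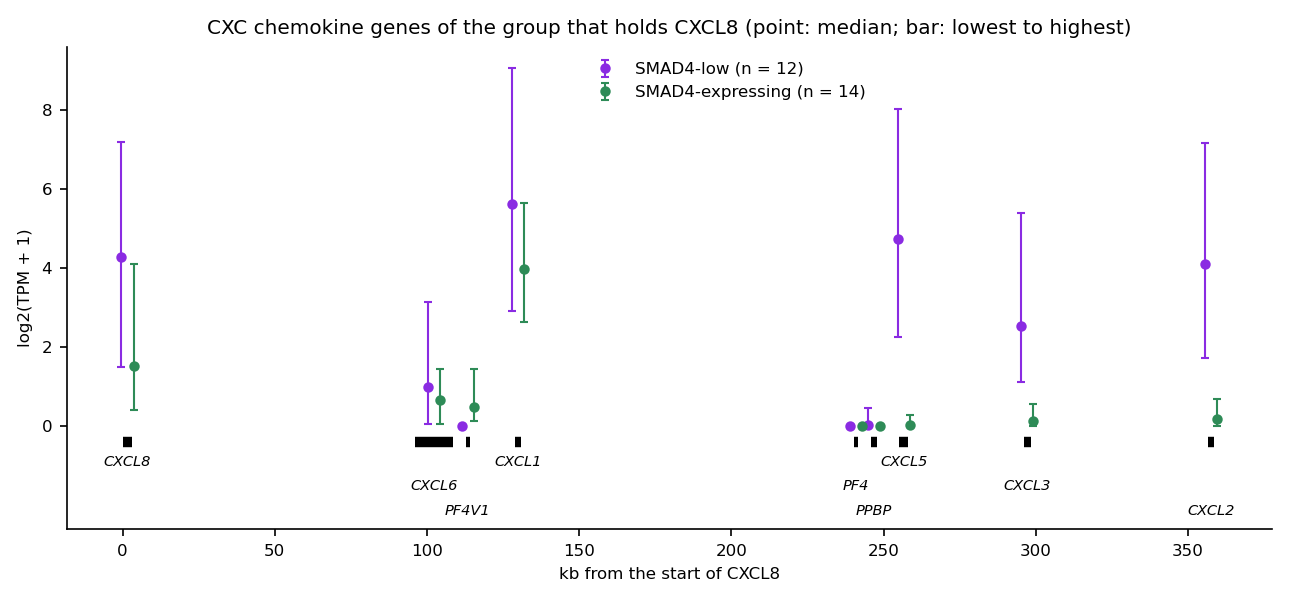
Levels, as log2(TPM + 1), of the 9 CXC chemokine genes of chromosome 4 against their distance in kb from the start of CXCL8; points are medians, bars run from the lowest to the highest library of each set, and black blocks are the genes. CXCL5, CXCL3 and CXCL2 reach 260, 41.3 and 143 TPM in the SMAD4-low libraries and at most 0.602 TPM in the SMAD4-expressing libraries. PF4, between CXCL1 and PPBP, is at 0.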

How the data were processed

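The authors extracted RNA from each SCDCL, sequenced poly-A selected, strand-specific libraries from both ends, and quantified them with kallisto 0.46.1 on GRCh38 (Ensembl release 103). Their deposited table gives, for 41078 genes and each library, TPM, expected counts (estimated counts scaled from TPM and mean transcript length to the library total) and estimated counts from kallisto's redrawn reads. Of the last kind, 5 columns for each library (runs 10 to 14) entered the error estimate, and 676 other columns of values for single libraries were not. Names and positions came from GENCODE 44, which matched 36315 genes, and sequences from RefSeq. The reads were not analysed here.

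Levels were read as TPM, with a pseudocount of 1 for log2. Sets of libraries were divided at a SMAD4 level of 1 TPM and compared by counting genes without overlap, with a median of at least 1 TPM in the higher set. Libraries labelled BxPC3 and Panc1 were compared with edgeR 4.0.16 (quasi-likelihood test on rounded estimated counts, TMM, filterByExpr, Benjamini-Hochberg adjustment, adjusted p under 0.05 and absolute log2 fold change over 1). DESeq2 1.42.0 and limma 3.58.1 were alternatives, in R 4.3.3. Correlations used scipy 1.17.1 in Python 3.11.15 with 100000 permutations, adjusted over 42 pairs. The overlap count, the rule for a library that stood apart, the permutation test and the edgeR test were tried on simulated data. Nothing shows that clones of 1 label are independent beyond their separate culture, so p-values measure the spread between these libraries. Counting error limits values of a few estimated counts.

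The named genes were the 10 members, genes of fixed lists (receptors, interleukin 1 processing, sheddases, NF-kB targets, other chemokines and cytokines, line, leukocyte and fibroblast markers) and the 3 genes most like each member. The members and lists were chosen with earlier results of these data known. PF4V1 and IL37 were named as neighbours after their values were seen.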

Additional observations from a re-analysis of the deposited data

Results flagged for a closer look

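Each member was examined for an extreme library in groups of libraries with the same label and SMAD4 set, 28 groups of 5 or 7 libraries in which it reached 1 TPM. By Dixon's criterion on log2(TPM + 1), chance flags about 1 in 20 such groups, and 7 values were flagged. They are not independent, since several come from the same libraries. The share of all genes that this criterion flags in these groups was not computed, so no excess among the members can be read from the 7 values.

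Library B25 was far below the 4 other SMAD4-low libraries labelled BxPC3 for 4 chemokines. CXCL1 was at 22.7 TPM in B25 against 134 to 235 TPM. CXCL2 was at 8.70 TPM against 37.9 to 64.8 TPM, and CXCL3 at 2.98 TPM against 16.5 to 25.6 TPM. CXCL8 was at 6.84 TPM against 80.1 to 136 TPM.

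Library B4 was far above the 6 other SMAD4-low libraries labelled Panc1 for CXCL3, at 41.3 TPM against 1.19 to 6.41 TPM, and for CXCL16, at 50.5 TPM against 25.4 to 33.4 TPM. Library B23 was far above the 6 other SMAD4-expressing libraries labelled BxPC3 for CXCL8, at 16.3 TPM against 0.323 to 2.73 TPM.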

How the results depend on the processing

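The count of members higher in every SMAD4-low library was 6 to 7 under CPM with TMM factors, DESeq2 size factors, a minimum of 5 TPM and no filter (6 under the minimum), and 7 with each library left out. The count higher in every SMAD4-expressing library remained 1 throughout. Correlated pairs numbered 28 to 31, with 28 without library B4, an alternative chosen after seeing the data. A library that stood apart for a member was found 0 times, and 1 time with a pseudocount of 5, a threshold of 3 deviations or CPM with TMM factors, each time CXCL8 in B23; the cause was not tested. Genes differing between the labels numbered 0 to 0 with each library left out, 1 by DESeq2 and 11 by DESeq2 within the SMAD4-low set, also chosen after seeing the data. That count of 11 became 100 without B4, 38 without B1, 35 without B25, 18 without B7 or B16 and 6 without B6. CX3CL1 was among the 11, at -2.32 on the log2 scale, and also passed without B1, B4, B24 or B25. CXCL1, CXCL2, CXCL3, CXCL8 and CCL20 were among the 100 without B4, and CXCL3 among the 35 without B25. In each case the library left out was the one whose level of these genes went most against the difference. No paired analysis was made, since each library came from a separate clone without a partner under the other label. Values below a few estimated counts, as for IL1A and IL1B in the SMAD4-expressing libraries, are limited by depth.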

Other observations

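Other secreted signals were divided between the sets in both directions. Of 14 other chemokine genes, CXCL10, CXCL11 and CCL28 were higher in every SMAD4-low library, CCL2 was higher in every SMAD4-expressing library, 2 overlapped and 8 were below 1 TPM in both medians, beside 15.2% of all genes higher in every SMAD4-low and 15.8% in every SMAD4-expressing library. CXCL10 and CXCL11, ligands of CXCR3 that interferon induces, were at 1.82 to 131 TPM and 1.78 to 384 TPM in the SMAD4-low libraries. In the others CXCL10 was listed at 0 throughout and CXCL11 did not exceed 0.0499 TPM. CCL2, which attracts monocytes, was at most 0.943 TPM in the SMAD4-low libraries and ranged from 3.17 TPM in B10 to 496 TPM in B19 in the SMAD4-expressing libraries, a range as wide as that of any ELR+ chemokine in the other set.

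Of 14 other cytokine genes, CSF3, IL33 and TSLP were higher in every SMAD4-low library, and IL32 and CSF1 in every SMAD4-expressing library. Another 6 overlapped and 3 were below 1 TPM in both medians. Of all genes, 15.2% were higher in every SMAD4-low and 15.8% in every SMAD4-expressing library. The gap of IL33 was narrow, with a lowest SMAD4-low value of 1.46 TPM and a highest SMAD4-expressing value of 1.31 TPM. CSF3, which encodes the granulocyte colony-stimulating factor G-CSF, was at 7.65 TPM in B3 and 325 TPM in B21 at the ends of its SMAD4-low range and at most 0.0379 TPM in the others. CSF1, the macrophage colony-stimulating factor, had medians of 10.08 and 88.2 TPM, the lower in the SMAD4-low libraries, yet within that set it had a rho of 0.94 with CXCL8. IL6, LIF, CSF1, CSF2 and CSF3, 5 of the 11 cytokine genes with a median of at least 1 TPM in the SMAD4-low set, were higher in B1, B4, B16, B21, B24 and B26 than in the other SMAD4-low libraries. Of 14095 genes 209 were so, as were 0 of 5 other chemokine genes and 0 of 3 receptor genes with such a median. No test was made of these counts.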
